A study of Mus with 6 samples.

Results

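The hypoxia response was read from 10 genes fixed by Ensembl ID: Hif1a, Egln3, Car9, Slc16a3, Pdk1, Bnip3, Ddit4, Adm, Ndrg1 and Ankrd37. All 10 were present among the 15646 genes of the deposited count table, and all 10 were among the 14348 genes that passed the filter on low counts. The rule sets no threshold on their values. The libraries came from orthotopic tumors, grown in the pancreas itself from KPC1199 cells, a line of mouse pancreatic ductal adenocarcinoma. Hosts were genetically obese ob/ob mice, which lack functional leptin, or lean wild-type (WT) mice, with 3 tumor libraries per group (obese 1, 3 and 4; lean 1, 2 and 3). The design text gives the genotypes, and the titles mark the groups as OB and ND. All tumors came from the 1 implanted line, and no agent is named for either group. The labels used here state neither age nor sex of the mice.

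Cells respond to low oxygen mainly through the protein HIF-1α, encoded by Hif1a. With oxygen present, prolyl hydroxylases of the EGLN family mark it for destruction through the VHL ubiquitin ligase, and when oxygen is scarce it persists, pairs with ARNT and switches on genes for acid export, glycolysis, mitochondrial turnover and vessel growth. Because this control acts on the protein, the Hif1a transcript is not itself a gauge of hypoxia. Pancreatic ductal adenocarcinoma is known as a fibrotic, poorly perfused tumor in which this program is commonly active.

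Only Ddit4 passed the test, being 2.91-fold lower in tumors of obese hosts. Expression of the HIF-1α gene Hif1a, the acid-handling genes Car9 and Slc16a3, the metabolic switch Pdk1 and the mitophagy gene Bnip3 did not separate obese from lean hosts. The hydroxylase gene Egln3 was lower in every obese than in every lean library but narrowly missed the threshold. Of the 10 genes, 1 fell and 0 rose at an adjusted p under 0.05 (edgeR quasi-likelihood test, Benjamini-Hochberg over all genes tested). Over all genes tested, 20.8% were called in either direction, with 10.6% of the genes tested lower and 10.3% higher in obese hosts. That share rests on the libraries included: 2991 of 14348 genes were called with all of them, but 1179 of 14748 without lean 2, 1461 of 14725 without obese 1, 1541 of 14760 without lean 3 and 1956 of 14780 without obese 4. Among genes averaging 10 CPM or more (counts scaled to library size with TMM factors), a level that all 10 exceeded, 24.4% were called. At an unadjusted p under 0.05, 2 of the 10 genes were lower and 0 were higher in obese hosts, where 36.2% of all genes were counted in either direction. DESeq2 called 2 lower and 0 higher, and limma-voom likewise 2 lower and 0 higher. Over all 14348 genes tested, DESeq2 called 3099 and limma-voom 3006. With a robust edgeR fit 0 of the 10 were called (Ddit4 adjusted p = 0.11), and likewise 0 without lean 2 or without lean 3. The robust fit called 3006 of 14348 over all genes. The fitted log2 fold change was above 0 for 5 genes and below 0 for 5, with a median of -0.04 against 0.01 over all genes tested. The median size of the change was 0.29, against 0.32 over all genes.

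**Figure D1:**
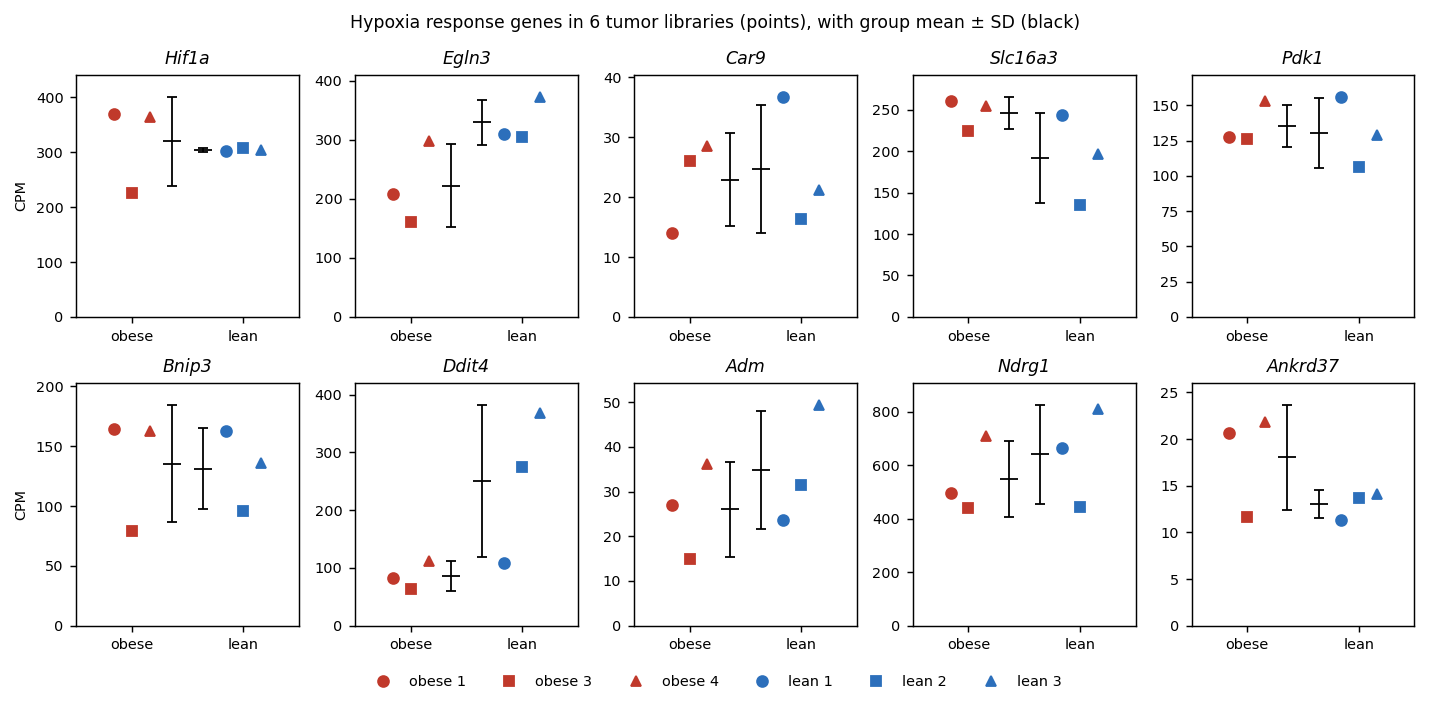
CPM of each hypoxia response gene in the 6 tumor libraries (points: obese in red on the left, lean in blue on the right; black: group mean ± SD, n = 3 each). Ddit4 lay between 62.6 and 113 CPM in obese libraries and at 108, 275 and 368 CPM in lean libraries, and Egln3 is the one gene whose groups do not overlap.

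Total counts were 7122533 to 8521244 per library, and each of the 10 genes had between 95 and 6464 counts in every library. Nothing in the labels says that libraries came from separate mice, and the p-values therefore rest on a spread among libraries that may be technical. On the second principal component of log2 CPM obese 3 stood apart at -37.7, with the other libraries between -6.45 and 17.5. In tumor tissue, fewer cells of a type and less RNA per cell cannot be told apart. The labelled tissue could not be checked against epithelial, stromal or other markers, since no table used here pairs gene symbols with the Ensembl IDs of the file. The other genes of the pathway, listed by symbol, could not be looked up for the same reason. Gene positions are those of RefSeq for GRCm38.p6, found by symbol for all 10 genes. Of these, 6 share part of their span with another annotated gene, and whether strand was used in counting is not given.

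Hif1a (ENSMUSG00000021109.13; chromosome 12, 73901324 to 73947554) encodes the oxygen-regulated subunit of the transcription factor. Its level was 369, 226 and 365 CPM in obese 1, 3 and 4, against 302, 309 and 304 CPM in lean 1, 2 and 3. Thus obese 1 and 4 lay above all lean libraries and obese 3 below them. The log2 fold change was 0.07 (SE 0.16; edgeR adjusted p = 0.789), and its 95% interval ran from 0.82-fold to 1.34-fold. Without obese 3 it was 0.27 (edgeR adjusted p = 0.0558). Its sign turned without obese 1 (-0.0434) and without obese 4 (-0.0365), with edgeR adjusted p = 0.901 and 0.912. The lean libraries differed by a coefficient of variation (SD over mean) of 1.12%, below the 2.05% that counting error alone would give, and the obese libraries by 25.5%. The lncRNA Gm15283 covers 27.8% of the Hif1a span, introns included, and whether this affects the Hif1a counts was not tested.

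Egln3 (ENSMUSG00000035105.5; chromosome 12, 54178981 to 54203874) encodes PHD3, a hydroxylase that acts on HIF-1α and is itself induced by HIF. It measured 208, 161 and 298 CPM in obese 1, 3 and 4, and 310, 305 and 373 CPM in lean 1, 2 and 3. Every obese library was below every lean one, with obese 4 close to lean 2. Lack of overlap with lower obese values was found for 1 of the 10 genes and for 20.0% of all genes tested. With higher obese values it was found for 0 of 10 against 20.3%, and in either direction for 1 of 10 against 40.3%. Egln3 averaged 222 ± 69.8 CPM in obese and 329 ± 37.9 CPM in lean tumors (SD, n = 3 each). Its log2 fold change was -0.57 (SE 0.19; edgeR unadjusted p = 0.0118, adjusted p = 0.0539), with an interval of 0.506-fold to 0.899-fold. The call depended on the tool, as DESeq2 gave an adjusted p = 0.0185 and limma-voom an adjusted p = 0.0383. A robust edgeR fit did not call it (adjusted p = 0.104). Without obese 4, the obese library nearest to the lean ones, the log2 fold change was -0.84 (edgeR adjusted p = 0.00949), and without obese 3 it was -0.38 (edgeR adjusted p = 0.0981). Without obese 1, lean 1, lean 2 or lean 3 it was -0.52, -0.61, -0.62 and -0.47. None of these passed (edgeR adjusted p = 0.151, 0.0795, 0.109 and 0.174).

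Car9 and Slc16a3 encode proteins with which hypoxic, glycolytic cells dispose of acid. Car9 (ENSMUSG00000028463.14; chromosome 4, 43507026 to 43513729), the surface carbonic anhydrase IX, is a widely used marker of hypoxic tumor areas. It was at 14.1, 26.1 and 28.6 CPM in obese 1, 3 and 4, against 36.8, 16.3 and 21.2 CPM in lean 1, 2 and 3. The lowest value was in an obese and the highest in a lean library, with the rest intermixed. A log2 fold change of -0.12 (SE 0.31; edgeR adjusted p = 0.818) came with a wide interval, 0.572-fold to 1.49-fold. Its sign turned to 0.28 without lean 1 and to 0.14 without obese 1, neither past the threshold (edgeR adjusted p = 0.523 and 0.794). Part of the Car9 span (25.7%) is shared with Arhgef39 and Tpm2.

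Slc16a3 (ENSMUSG00000025161.16; chromosome 11, 120948484 to 120959000) encodes MCT4, the lactate exporter of glycolytic cells. It had 260, 224 and 255 CPM in obese 1, 3 and 4, and 244, 135 and 197 CPM in lean 1, 2 and 3. All obese libraries exceeded lean 2 and lean 3, while lean 1 fell within the obese range. The group values were 246 ± 19.6 CPM in obese and 192 ± 54.3 CPM in lean tumors (SD, n = 3 each). The log2 fold change of 0.36 (SE 0.18) did not pass (edgeR adjusted p = 0.166), and its interval ran from 0.98-fold to 1.68-fold. It was 0.57 and passed without lean 1 (edgeR adjusted p = 0.0392), and 0.16 without lean 2 (edgeR adjusted p = 0.459). Csnk1d shares 12.3% of the Slc16a3 span.

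Pdk1 (ENSMUSG00000006494.11; chromosome 2, 71873215 to 71903858) encodes pyruvate dehydrogenase kinase, which keeps pyruvate out of the mitochondrial citrate cycle. Its CPM was 128, 126 and 153 in obese 1, 3 and 4, against 156, 107 and 129 in lean 1, 2 and 3. The obese values lay entirely within the lean range. Pdk1 had a log2 fold change of 0.05 (SE 0.14; edgeR adjusted p = 0.826), and the interval of 0.833-fold to 1.29-fold was the narrowest of the 10 genes on the log2 scale.

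Bnip3 (ENSMUSG00000078566.8; chromosome 7, 138890836 to 138909506) encodes a mitochondrial outer membrane protein that promotes removal of mitochondria by autophagy. It measured 165, 79.0 and 163 CPM in obese 1, 3 and 4, and 163, 95.6 and 136 CPM in lean 1, 2 and 3. Each group thus held a library with low Bnip3, obese 3 and lean 2. Bnip3 had a log2 fold change of 0.04 (SE 0.26; edgeR adjusted p = 0.923), with an interval of 0.695-fold to 1.53-fold. The pseudogene Gm18258 lies within 5.29% of the Bnip3 span.

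Ddit4 (ENSMUSG00000020108.4; chromosome 10, 59949675 to 59951770) encodes REDD1, an inhibitor of the growth kinase complex mTORC1. It is induced by hypoxia through HIF, and also by glucocorticoids, DNA damage and the integrated stress response. Ddit4 was at 82.5, 62.6 and 113 CPM in obese 1, 3 and 4, against 108, 275 and 368 CPM in lean 1, 2 and 3. Lean 2 and lean 3 were far above every obese library, and lean 1 lay inside the obese range, so the groups overlapped. Ddit4 averaged 86.0 ± 25.2 CPM in obese and 250.2 ± 131 CPM in lean tumors (SD, n = 3 each). Its log2 fold change of -1.54 (SE 0.36; edgeR adjusted p = 0.0148) had an interval of 0.199-fold to 0.593-fold. A lower log2 fold change was fitted for 1.48% of all genes tested. The size of the fall or its call moved with the library left out. The log2 fold change was -1.90 without lean 1 (edgeR adjusted p = 0.00212) and -1.16 without lean 3 (adjusted p = 0.0623). Without lean 2 it stayed close, at -1.47 (adjusted p = 0.0628). The call was thus lost without either of the high lean libraries. It was also lost with a robust fit (edgeR adjusted p = 0.11). Without obese 1, 3 or 4 the log2 fold change was -1.51, -1.35 and -1.78. The call held there, narrowly without obese 1 (edgeR adjusted p = 0.0495, 0.0264 and 0.0209). No annotated gene overlaps Ddit4.

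**Figure D2:**
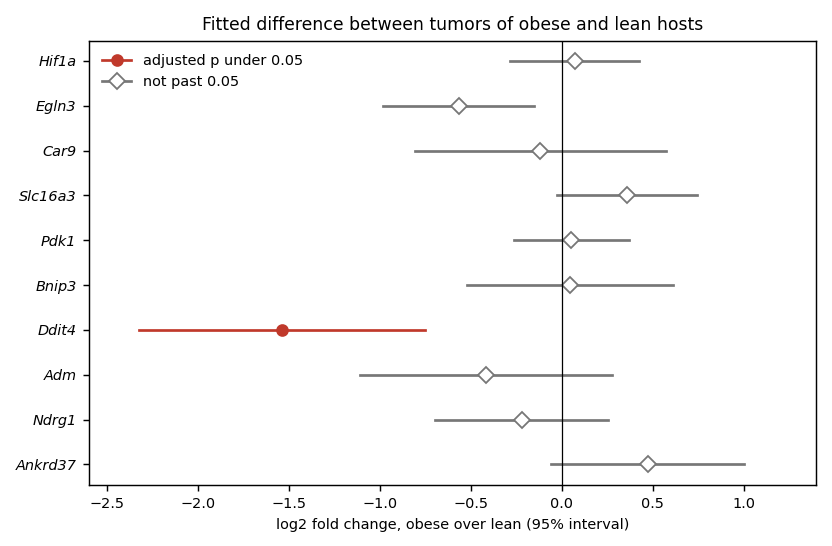
Fitted log2 fold change, obese over lean, with its 95% interval for each gene (red filled circle: edgeR adjusted p under 0.05; grey open diamond: not past it). Only the Ddit4 estimate of -1.54 is marked as called, and the interval of Egln3 (-0.98 to -0.15) also lies below 0 although its adjusted p of 0.0539 missed the threshold.

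The remaining genes are downstream targets with secreted, cytoplasmic or nuclear products. Adm (ENSMUSG00000030790.15; chromosome 7, 110627657 to 110629820) encodes adrenomedullin, a secreted peptide that widens and builds vessels. It was at 27.1, 14.9 and 36.1 CPM in obese 1, 3 and 4, and at 23.7, 31.4 and 49.3 CPM in lean 1, 2 and 3. The groups overlapped, with the lowest level in obese 3 and the highest in lean 3. The log2 fold change was -0.42 (SE 0.31; edgeR adjusted p = 0.366), with an interval of 0.463-fold to 1.21-fold. The whole Adm span lies within that of the lncRNA Gm28863, introns included, and whether this affects the Adm counts was not tested.

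Ndrg1 (ENSMUSG00000005125.13; chromosome 15, 66929318 to 66969641) encodes a cytoplasmic protein linked to differentiation and stress, and its transcript is a common component of hypoxia signatures. Its level was 496, 441 and 709 CPM in obese 1, 3 and 4, against 666, 444 and 809 CPM in lean 1, 2 and 3. Obese 3 and lean 2 were almost level at the low end. Its log2 fold change was -0.22 (SE 0.21; edgeR adjusted p = 0.491), with an interval of 0.618-fold to 1.19-fold.

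Ankrd37 (ENSMUSG00000050914.16; chromosome 8, 45996908 to 46000414) encodes a small ankyrin repeat protein and is a direct HIF target. It had 20.6, 11.6 and 21.8 CPM in obese 1, 3 and 4, and 11.3, 13.6 and 14.1 CPM in lean 1, 2 and 3. Obese 1 and 4 were above all lean libraries, and obese 3 was among them. Ankrd37 had a log2 fold change of 0.47 (SE 0.24; edgeR adjusted p = 0.184), with an interval of 0.959-fold to 2.01-fold. Without obese 3 it was 0.71 and passed the threshold (edgeR adjusted p = 0.024). With any other library left out it was 0.31 to 0.54 and did not pass (edgeR adjusted p = 0.243 to 0.460). A stretch of 1.45% of the Ankrd37 span is shared with Ufsp2.

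Libraries of the same host group differed more in most of these genes than in most genes at 10 CPM or more. The coefficient of variation of CPM had a median of 30.1% over the 10 genes in obese and 27.0% in lean libraries. For all 9647 genes at 10 CPM or more, the median was 10.6% in obese and 10.4% in lean libraries. The genes' coefficient was above the 90th percentile of those genes for 8 of 10 in the obese group and for 6 of 10 in the lean group. In obese libraries the exceptions were Slc16a3 and Pdk1, at 7.95% and 11.2%. In lean libraries they were Hif1a at 1.12%, Egln3 at 11.5%, Ankrd37 at 11.7% and Pdk1 at 19.1%. Counting error would give at most 8.15% in obese and 9.93% in lean libraries, both for Ankrd37. Between the highest and the lowest library of a group, Adm differed 2.42-fold among obese tumors and Ddit4 3.40-fold among lean tumors. These are descriptions over 3 libraries a group, and no test was made of the spread.

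**Figure D3:**
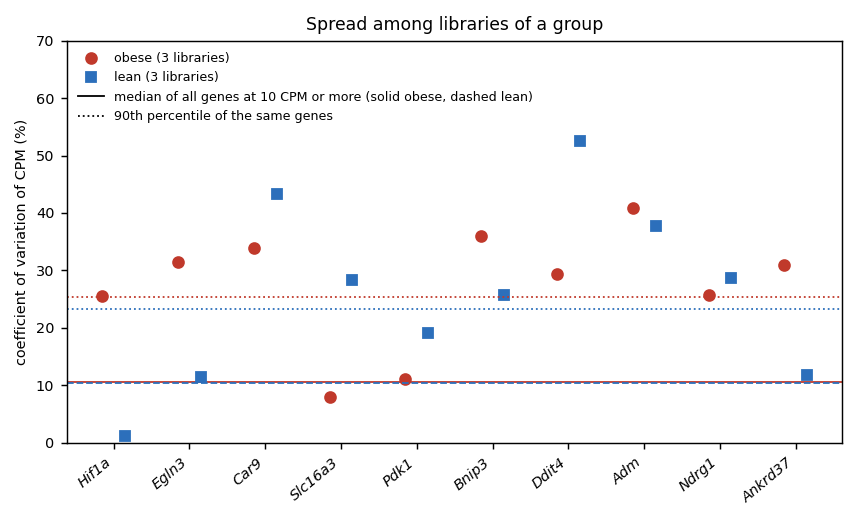
Coefficient of variation of CPM among the 3 libraries of a group for each gene (red circles: obese; blue squares: lean), with the median (solid and dashed lines, 10.6% and 10.4%) and the 90th percentile (dotted lines, 25.4% in obese and 23.3% in lean) of all genes at 10 CPM or more. Most of the points lie above the dotted lines, and Hif1a in lean libraries, at 1.12%, lies lowest.

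The spread had a pattern by library. Obese 3 was the lowest obese library for 9 of the 10 genes, Car9 being the exception, whereas it was the lowest for 39.6% of the genes at 10 CPM or more. Its median deviation from the obese mean was -0.42 on the log2 scale over the 10 genes and -0.01 over those genes. Obese 4 was the highest obese library for 7 of the 10. Its median deviation was 0.36 over the 10 genes and 0.0045 over the genes at 10 CPM or more. For the highest place, no share over those genes was computed for any library. Among lean tumors, lean 2 was the lowest for 6 of the 10 genes, against 33.1% of the genes at 10 CPM or more. Lean 1 was lowest for the other 4 (Hif1a, Adm, Ankrd37 and Ddit4), near the 35.8% of the genes at 10 CPM or more, and highest for Car9, Slc16a3, Pdk1 and Bnip3. For Hif1a that place rests on lean values that differ by less than counting error. Lean 1 thus had the highest lean levels of the acid and pyruvate genes and the lowest lean level of Ddit4. Whether the place of obese 3 on the second principal component has a part in its low values was not tested.

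**Figure D4:**
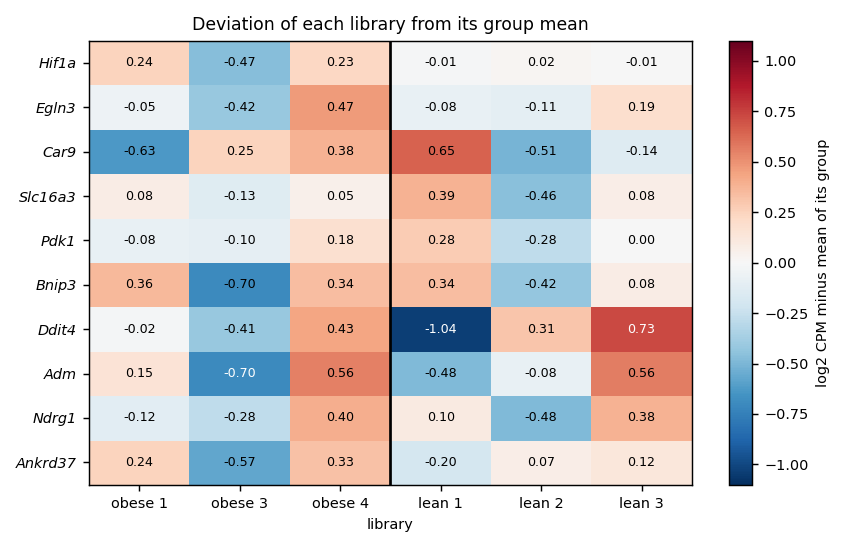
Log2 CPM of each gene in each library minus the mean of its host group (colour and printed value; black line between obese libraries on the left and lean libraries on the right). The obese 3 column is below 0 for all genes but Car9 (0.25), and lean 1 runs between 0.65 for Car9 and -1.04 for Ddit4.

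Over 15 other settings of scaling, filter, test and libraries, Ddit4, Egln3, Adm and Ndrg1 were fitted lower in obese hosts each time, and Ankrd37 and Slc16a3 higher each time. A constant sign did not mean a sizeable difference, since without lean 3 the log2 fold change was -0.02 for Ndrg1 (edgeR adjusted p = 0.967) and -0.08 for Adm (edgeR adjusted p = 0.891). Hif1a, Car9, Bnip3 and Pdk1 changed sign in at least 1 setting. The number of hypoxia genes called was 0 to 2 when a library was left out. It was 0 without lean 2 or lean 3, 1 without obese 1, and 2 without obese 3, obese 4 or lean 1. Calls over all genes tested moved with the omitted library too. They were 1179 of 14748 without lean 2, 1541 of 14760 without lean 3 and 1461 of 14725 without obese 1. They were 1956 of 14780 without obese 4, 2624 of 14704 without lean 1 and 3066 of 14720 without obese 3. Each omission with 2 hypoxia genes called had more calls over all genes than each with 0 or 1. The move from 0 to 2 therefore cannot be read as particular to the hypoxia genes. The hypoxia genes called besides Ddit4 were Ankrd37 (higher) without obese 3, Egln3 (lower) without obese 4 and Slc16a3 (higher) without lean 1.

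**Figure D5:**
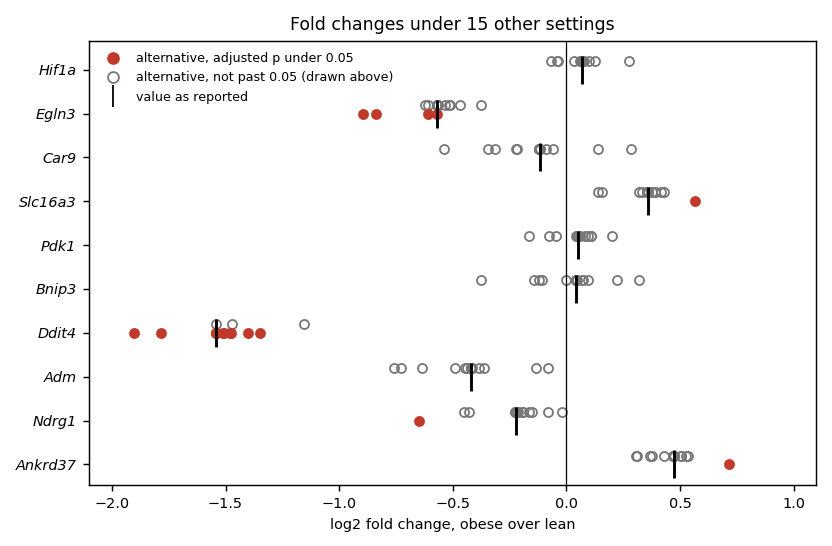
Fitted log2 fold change, obese over lean, for each gene under 15 alternative settings (red filled: edgeR, DESeq2 or limma-voom adjusted p under 0.05; grey open, drawn slightly above: not past it; black bar: value as reported). Ddit4 stays between -1.90 and -1.16 and Egln3 between -0.89 and -0.38, while Hif1a, Car9, Bnip3 and Pdk1 lie on both sides of 0.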

How the data were processed

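Total RNA was extracted with QIAzol and a column kit and depleted of ribosomal RNA, per the labels' protocols. The deposited values are raw gene counts in 1 table; the submitters' processing notes name CASAVA, STAR and Subread and the build GRCm38, and give no versions, settings or strand handling. The lowest gene sum in the table is 11, so scarcer genes were dropped before deposit by an unstated rule. From these counts, edgeR 4.0.16 in R 4.3.3 was run on all genes: expression filter (minimum count 10, minimum total 15; 1298 genes removed), TMM factors and the two-sided quasi-likelihood F test without covariates, with Benjamini-Hochberg adjustment over 14348 genes and a threshold of 0.05. The SE is the log2 fold change divided by the square root of F, and 95% intervals use the fit's degrees of freedom. Log2 CPM used a prior count of 2. The test was checked on simulated counts. Alternatives were other scalings and filters, limma-voom (limma 3.58.1), DESeq2 1.42.0, a replicate block, a robust fit and the omission of each library in turn. All 10 members were named whatever their values. Other lists were fixed by symbol and not looked up, as 0 of 49997 RefSeq rows carry an Ensembl ID; the planned search for genes of like pattern was dropped too. Members and lists were chosen with earlier results of these data known. No sequence was at hand, so none is shown.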

Additional observations from a re-analysis of the deposited data

How the results depend on the processing

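Of the 150 values of single hypoxia genes under other settings, 127 kept their direction and side of the threshold, 7 came to pass it, 3 (all Ddit4) no longer passed and 13 changed sign, all of genes that were not called. DESeq2 called 2 of the 10 genes (Ddit4 and Egln3, both lower), and limma-voom called the same 2. The robust fit called 0, the replicate block 3, all of them lower, and each of the other scalings and filters 1. Over all 14348 genes, DESeq2 called 3099, limma-voom 3006, the robust fit 3006 and the replicate block 2087. The other scalings and filters called 2903 (no filter, of 15646) to 3011 (upper-quartile factors, of 14348). Leaving out 1 library gave 0 to 2 called, 0 to 2 lower and 0 to 1 higher; over all genes it gave 1179 (without lean 2) to 3066 (without obese 3) called, 567 to 1468 higher and 612 to 1598 lower, against 2991, 1474 and 1517. The count over all genes also fell by over 1.5 times without obese 1 (1461), lean 3 (1541) and obese 4 (1956). With total counts only, 1797 of the called genes were higher and 1170 lower in obese hosts, and no hypoxia gene changed direction. Sign changes on the log2 scale were -0.00384 for Bnip3 with limma-voom; with a library left out, Hif1a ranged over -0.0434 to 0.27, Car9 over -0.34 to 0.28, Bnip3 over -0.14 to 0.32 and Pdk1 over -0.0771 to 0.20. The cause was not tested.

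With the replicate number as a block, Egln3 (-0.89, edgeR adjusted p = 0.000734), Ndrg1 (-0.65, adjusted p = 0.00476) and Ddit4 (-1.48, adjusted p = 0.00317) passed, and Hif1a (-0.0683), Bnip3 (-0.37) and Pdk1 (-0.16) changed sign. Over all genes 2087 were called. The groups share only the numbers 1 and 3, so obese 4 and lean 2 carry no weight in that comparison. The block fit keeps 1 residual degree of freedom per gene, so its p-values rest mainly on spread borrowed from other genes. Deviations of the same-numbered libraries correlated at 0.0901 and 0.0744 over all genes tested. Pairs of unlike number ran lower, from -0.131 (obese 3 with lean 1) to 0.0663 (obese 3 with lean 2). So few values cannot decide whether same-numbered libraries are related. The main test takes the libraries to share a number only. The lowest count of the 10 genes in a library was 95; how far depth limits their comparison was not tested.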

Other observations

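Ratios of members within a library were looked at after their values were seen; scaling cancels in them. The Egln3 to Ankrd37 ratio of CPM was 10.1, 13.9 and 13.7 in obese 1, 3 and 4, against 27.5, 22.4 and 26.4 in lean 1, 2 and 3. The groups did not overlap in this ratio, as in 13 of the 45 ratios that the 10 genes allow. No such share was computed for pairs drawn from all genes, so the count has no background here. The 40.3% without overlap over all genes tested is for single genes, which is another measure. The Egln3 to Hif1a ratio was 0.562, 0.713 and 0.817 in obese 1, 3 and 4, and 1.03, 0.988 and 1.23 in lean 1, 2 and 3, again without overlap. For Ddit4 to Egln3, the ratio was 0.398, 0.389 and 0.378 in obese 1, 3 and 4, against 0.349, 0.902 and 0.986 in lean 1, 2 and 3. Lean 1 was here close to the obese tumors, and lean 2 and 3 stood apart from the other 4 libraries. No test was made of these ratios, as they were picked for their pattern.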
